A study of Homo sapiens with 42 samples.

Results

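The genes described here encode the subunits, activators and assembly chaperones of the proteasome, taken as every symbol made of PSMA, PSMB, PSMC, PSMD, PSME, PSMF or PSMG and a number. RefSeq lists 48 such genes, 44 of them had a named probe on the array, and 41 were above background, among 8917 genes measured of 20043 with a named probe. PSMA8, PSMB11 and PSMF1 had probes that were not above background, and PSMA7, PSMC5, PSMD7 and PSMD13 had no named probe and were not analysed here. RNA came from 1205Lu, an established human metastatic melanoma line, and each of 42 samples was hybridised to its own single-colour Illumina bead array. One series of cells received 0.5 µM AZD1152, selective for Aurora kinase B, and the other 0.05 µM SNS-314, which inhibits all Aurora kinases. They were collected at 6 h (3 samples per inhibitor) and at 12, 18, 24 and 48 h (4 samples per inhibitor and time), and 4 control samples came from 0 h. Controls exist for 0 h alone in the data used here, so in every comparison with 0 h the inhibitor and the time in culture cannot be told apart. The labels give no cultures or donors behind the replicate numbers, so the p-values rest on a spread between samples that may be only technical.

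The proteasome degrades proteins that carry chains of ubiquitin. Its barrel, the 20S core, is made of rings of α subunits, which gate the entrance, and rings of β subunits, a few of which cut the substrate. The 19S cap holds ATPases that unfold the substrate and non-ATPase subunits that bind ubiquitin and remove it. Other caps (PSME) replace the 19S particle, and dedicated chaperones (PSMG for the core, PSMD5, PSMD9 and PSMD10 for the ATPases) put the rings together. Interferon brings in a second set of cutting subunits, the immunoproteasome, which shapes the peptides shown on MHC class I, and the transcription factor NFE2L1 raises most subunit genes when proteasome activity is short.

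Median signals ranged over the arrays between 210.0 and 338.6, and the share of probes above background between 20.5% and 30.4%. Of 12 melanoma markers 5 were above background (SOX10, S100A1, ERBB3, AXL and SOX9), and the pigment cell genes MITF, MLANA, PMEL, TYR, TYRP1 and DCT were not. Of the markers of other cell types, PDGFRB of 5 fibroblast genes and LCP1 of 5 leukocyte genes passed, with 0 of 4 endothelial and 0 of 4 keratinocyte genes. A named probe existed for 11 of the 12 melanoma, 4 of the 5 leukocyte and 3 of the 4 keratinocyte genes, and genes without one could not be seen. The arrays that correlated least with the rest of their group were AZD1152 18 h replicates 1 (r = 0.978) and 4 (r = 0.982) and SNS-314 12 h replicate 4 (r = 0.984), and counts without these 3 arrays are given beside those they touch. Of the 41 proteasome genes 37 were above background on all 42 arrays, and the others (PSMD11, PSMD9, PSMD3 and PSMD5) on 36 to 41. Levels are log2 intensities after background correction and quantile normalization, and a change is a difference of group means on that scale. Calls are made by limma at a threshold of 0.05 on p-values adjusted by Benjamini-Hochberg over the 8917 genes of a comparison. The level of 1 probe is not comparable with that of another probe.

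Proteasome genes were lower at 48 h with both inhibitors, after few calls up to 24 h. At 48 h, 22 of 41 proteasome genes fell and 1 rose with AZD1152, where 21.8% of all genes fell and 20.7% rose. With SNS-314, 21 fell and 2 rose, where 23% of all genes fell and 22.3% rose. The same 18 proteasome genes fell with both inhibitors, which is 43.9% of them and 19.2% of all genes, and 1, PSMD10, rose with both, where 18% of all genes did. Both inhibitors were set against the same 4 controls, so their agreement is not independent. All 4 arrays lay below all controls for 17 proteasome genes with AZD1152 and 21 with SNS-314, where 22% and 22.8% of all genes did. They lay above all controls for 1 (PSMD10) with AZD1152 and 2 (PSMB4 and PSMD10) with SNS-314, where 20.5% and 21% of all genes did. The estimated change was negative for 39 of 41 proteasome genes with each inhibitor, beside 4486 of 8917 genes with AZD1152 and 4522 with SNS-314. The median change over the 41 genes was -0.26 with AZD1152 and -0.26 with SNS-314, beside -0.00 and -0.01 over all genes. As each array is scaled to the same distribution of signals, a fall is relative to the other transcripts, and fewer cells of a type and less RNA per cell cannot be told apart.

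The mean log2 level over the 41 genes was 11.67 ± 0.02 at 48 h of AZD1152 and 11.68 ± 0.03 at 48 h of SNS-314, against 11.94 ± 0.01 in the controls (SD, n = 4 each). By array it lay between 11.64 and 11.69 with AZD1152 and between 11.65 and 11.71 with SNS-314, against 11.93 to 11.96 in the controls. Every array at 48 h was thus below every other array of the series, the lowest of which, at 24 h of SNS-314, had 11.81. The group means at 6, 12, 18 and 24 h were 11.90, 11.88, 11.94 and 11.92 under AZD1152 and 11.89, 11.92, 11.90 and 11.86 under SNS-314. Some earlier groups also lay below all controls, the lowest of which had 11.926. Their highest arrays had 11.903 at 12 h of AZD1152 and 11.920, 11.921 and 11.918 at 6, 18 and 24 h of SNS-314. Arrays at 18 h and 24 h of AZD1152 and at 12 h of SNS-314 overlapped the controls, and those at 6 h of AZD1152 reached 11.926.

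**Figure D1:**
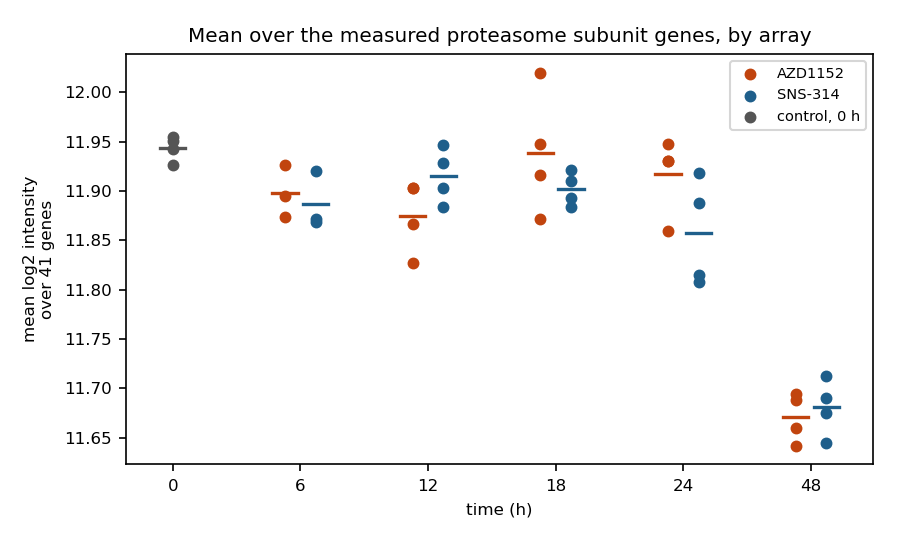
Mean log2 intensity over the 41 measured proteasome genes on each array (points) with the group mean (bars), by time in h (axis not to scale in time), AZD1152 in orange, SNS-314 in blue and the 0 h controls in grey. The 8 arrays at 48 h lie at 11.71 or below, and all others at 11.81 or above.

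**Figure D2:**
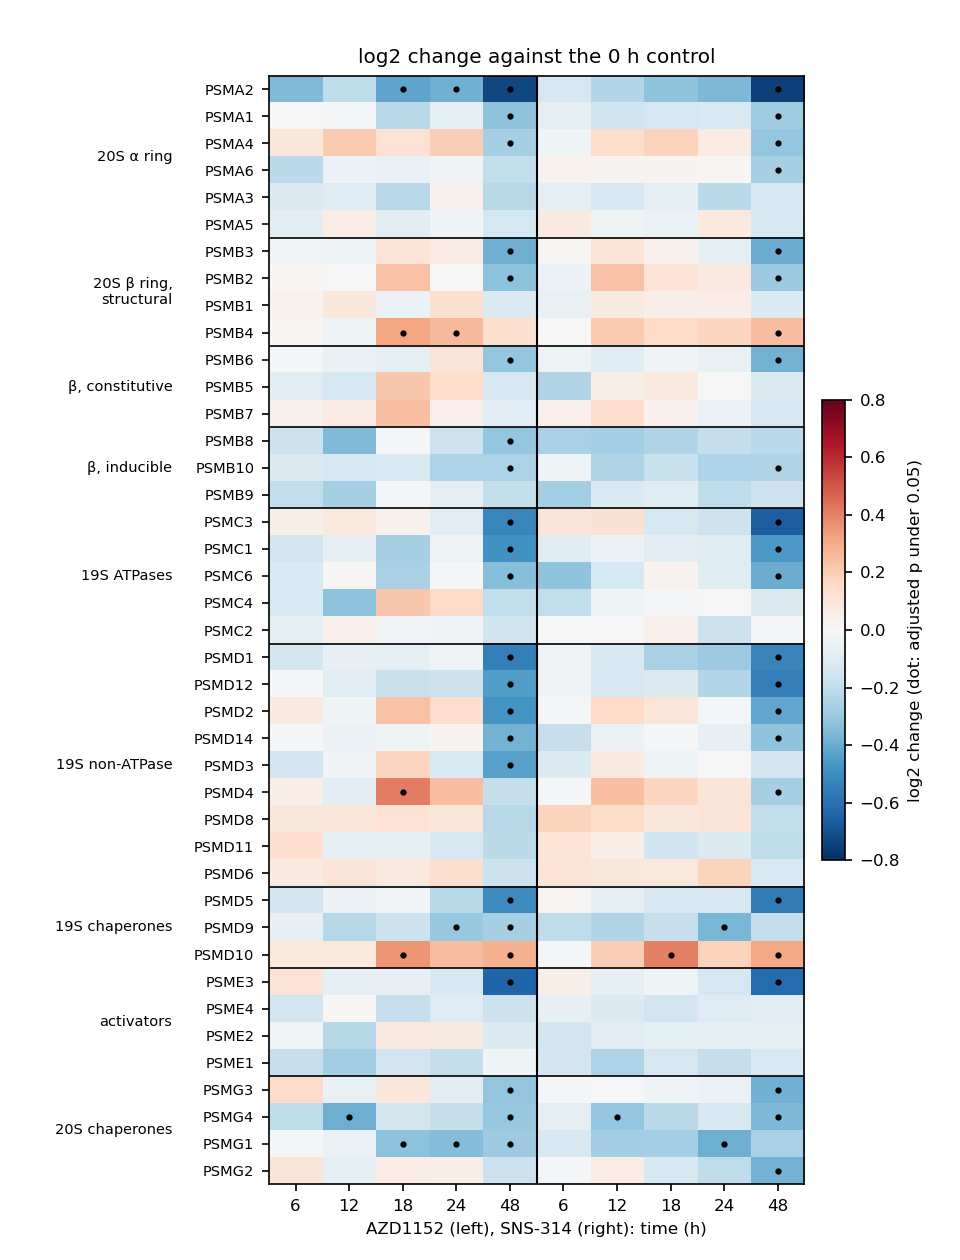
Log2 change of each measured proteasome gene against the 0 h controls, by time in h, with AZD1152 in the left block and SNS-314 in the right, grouped by role. Dots mark an adjusted p under 0.05 in limma, and they gather in the 48 h columns, with 23 in each.

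The 48 h changes were also present on chips that held controls, with chips inferred from column names and not named in the labels. Within chip 2 the median change over the proteasome genes, with 1 treated array and 2 controls each, was -0.24 for AZD1152 and -0.22 for SNS-314. There 37 of 41 genes were negative with each, beside 49.6% and 49.7% of all genes. Within chip 3 the median change was -0.26 for both. There 35 genes were negative for AZD1152 and 33 for SNS-314, beside 49.8% and 49.5% of all genes. When 1 array was left out, the number of proteasome genes called at 48 h was 16 to 21 with AZD1152 and 18 to 22 with SNS-314, and the number lower with both was 14 to 19, the lowest without control replicate 3. Without the 3 arrays that stand apart it was 20 of 41, where 20.8% of all genes were lower with both. Of the 18 genes, 12 were called lower with both whichever of the 12 arrays at 48 h or 0 h was left out: PSMA2, PSMB2, PSMB3, PSMB6, PSMC1, PSMC3, PSMD1, PSMD2, PSMD5, PSMD12, PSMD14 and PSME3.

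Promoters of genes with different courses are printed here so that they can be set beside the values below. They are RefSeq sequences of GRCh38.p14, given 5′ to 3′ in the direction of transcription and ending at the base before the annotated start. PSMA2, PSMC3 and PSMB3 fell with both inhibitors, as did PSMB10, an interferon-inducible subunit, and PSMB4 was not called lower. These windows do not stand for all proteasome genes, for which counts follow the sequences. The letters searched, on both strands, were TGACNNNGC (the core of the element that NFE2L1 and NFE2L2 bind), CCAAT (the NF-Y box) and, as the core of the interferon-stimulated element, GAAA followed after 2 bases of any kind by GAAA, and matches are in capitals. The PSMA2 window (chr7:42932175-42932375, minus strand) is 201 bases long, as the neighbour MRPL32 starts beyond it, and holds 1 CCAAT. The PSMC3 window (chr11:47426440-47426689, minus strand) holds 1 CCAAT, and the PSMB3 window (chr17:38752491-38752740, plus strand) 1 TGACNNNGC and 2 CCAAT. The windows of PSMB4 (chr1:151399323-151399572, plus strand) and PSMB10 (chr16:67936851-67937100, minus strand) each hold 1 GAAA pair.
PSMA2: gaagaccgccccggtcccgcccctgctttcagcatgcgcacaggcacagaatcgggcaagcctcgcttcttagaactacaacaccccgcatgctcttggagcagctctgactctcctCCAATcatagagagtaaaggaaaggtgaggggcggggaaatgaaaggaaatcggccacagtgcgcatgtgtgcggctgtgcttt
PSMC3: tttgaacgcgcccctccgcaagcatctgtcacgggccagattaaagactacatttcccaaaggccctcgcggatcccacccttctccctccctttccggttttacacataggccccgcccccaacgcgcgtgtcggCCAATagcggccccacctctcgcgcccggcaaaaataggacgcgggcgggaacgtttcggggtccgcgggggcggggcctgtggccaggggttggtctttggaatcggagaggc
PSMB3: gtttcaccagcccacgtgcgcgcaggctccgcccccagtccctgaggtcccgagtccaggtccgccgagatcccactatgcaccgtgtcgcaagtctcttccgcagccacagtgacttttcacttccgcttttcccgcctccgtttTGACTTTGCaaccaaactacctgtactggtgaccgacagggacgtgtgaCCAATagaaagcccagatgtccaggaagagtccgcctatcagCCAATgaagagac
PSMB4: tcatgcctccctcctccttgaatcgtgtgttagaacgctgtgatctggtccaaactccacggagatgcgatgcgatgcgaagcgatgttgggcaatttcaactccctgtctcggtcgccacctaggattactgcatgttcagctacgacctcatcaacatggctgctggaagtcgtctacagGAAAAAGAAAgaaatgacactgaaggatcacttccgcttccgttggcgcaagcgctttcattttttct
PSMB10: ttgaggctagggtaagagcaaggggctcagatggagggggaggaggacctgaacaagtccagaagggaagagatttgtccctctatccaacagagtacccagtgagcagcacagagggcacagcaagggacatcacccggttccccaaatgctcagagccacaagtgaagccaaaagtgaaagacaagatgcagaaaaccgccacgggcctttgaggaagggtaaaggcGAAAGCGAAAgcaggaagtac

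Of the 41 measured genes, 36 had a promoter window of up to 250 bases before the start. TGACNNNGC was found in 12 of them (33.3%) and in 13.2% of 27303 genes, CCAAT in 16 (44.4%) and in 37.0%, and the GAAA pair in 5 (13.9%, PSMA4, PSMB4, PSMB10, PSME2 and PSMG4) and in 3.71%. Among the 16 genes lower with both inhibitors at 48 h that had a window, 4 held TGACNNNGC, 6 CCAAT and 3 the GAAA pair. Such matches describe the letters of these windows and do not show binding.

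In the α ring of the core, 3 of 6 measured genes were called lower with both inhibitors (PSMA1, PSMA2 and PSMA4), and PSMA6 with SNS-314. PSMA2 had the most negative change of all 41 genes. Its log2 levels were 9.77, 9.71, 9.48 and 9.31 at 48 h of AZD1152 and 9.58, 9.50, 9.54 and 9.59 at 48 h of SNS-314, against 10.26, 10.40, 10.20 and 10.33 in the controls. The groups did not overlap, and the change was -0.73 ± 0.14 with AZD1152 (SE, adjusted p = 3.2e-05 in limma, 1.66-fold lower) and -0.75 ± 0.14 under SNS-314 (adjusted p = 2.2e-05, 1.68-fold lower). PSMA2 had lower means before 48 h too, with 10.30 in the 0 h controls followed at 6, 12, 18, 24 and 48 h by 9.94, 10.09, 9.87, 9.91 and 9.57 in AZD1152 samples and by 10.16, 10.06, 9.98, 9.94 and 9.55 in SNS-314 samples. With AZD1152 it was called at 18 h (-0.42, adjusted p = 0.028) and at 24 h (-0.38, adjusted p = 0.048). With SNS-314 its estimates at these times were nearly as large, -0.32 (adjusted p = 0.14) and -0.36 (adjusted p = 0.061), and were not called. The AZD1152 call at 24 h was lost in 7 of 8 fits that each left out 1 array (adjusted p 0.057 to 0.12), and the 18 h call in 4 of 8 (0.061 to 0.16), among them those without AZD1152 18 h replicate 1 or 4. PSMA1 had 13.35, 13.54, 13.27 and 13.04 under AZD1152 and 13.35, 13.52, 13.24 and 13.23 under SNS-314, against 13.70, 13.52, 13.63 and 13.64 in the controls. Its groups overlapped, as control replicate 2 lay among the treated arrays, with changes of -0.32 (adjusted p = 0.014 in limma) and -0.29 (adjusted p = 0.028). The call of PSMA1 was lost without AZD1152 48 h replicate 4 (adjusted p = 0.094) and, with SNS-314, without SNS-314 48 h replicate 3 or 4 or control replicate 1 or 4 (0.054 to 0.082). PSMA4, at -0.27 and -0.31, lost a call without AZD1152 48 h replicate 2 or 3 or control replicate 3 (0.091 to 0.18), and its other probe was called with neither inhibitor (-0.32 and -0.22, adjusted p = 0.091 and 0.26). The other probe of PSMA1 was called with both (-0.30 and -0.44, adjusted p = 0.0082 and 0.00016), and that of PSMA6 was not called with SNS-314 (-0.22, adjusted p = 0.058). PSMA3 and PSMA5 had estimates between -0.22 and -0.13 and were not called.

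**Figure D3:**
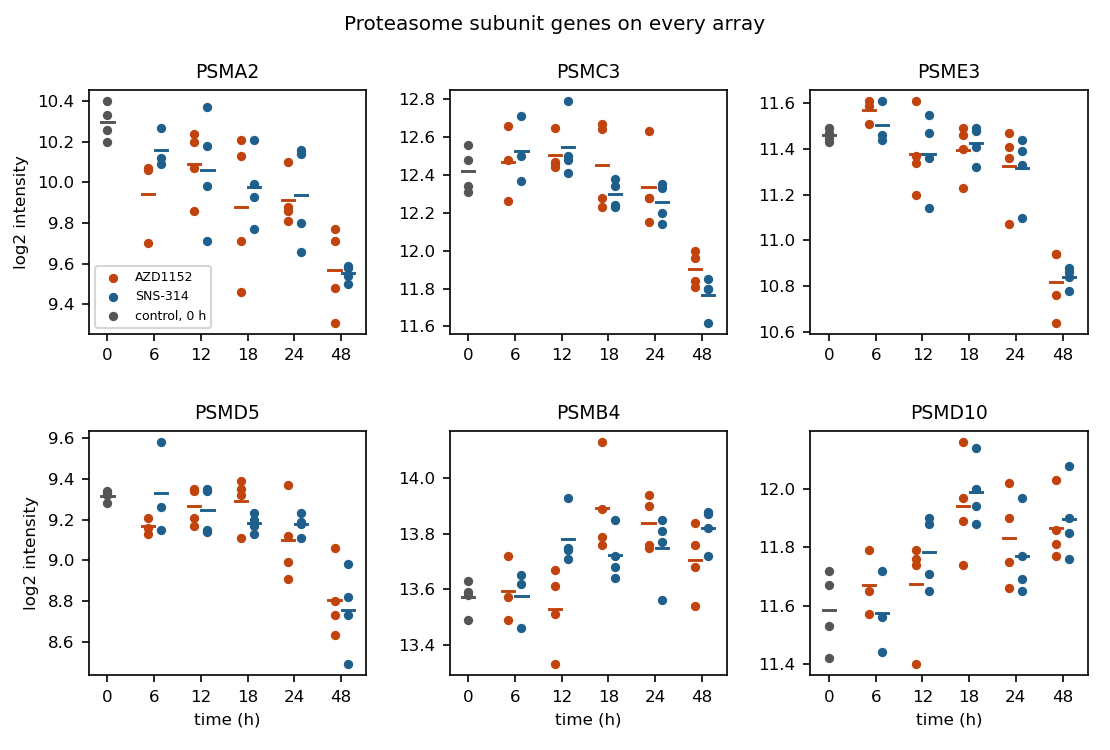
Log2 intensity of PSMA2, PSMC3, PSME3, PSMD5, PSMB4 and PSMD10 on every array (points) with group means (bars), by time in h, AZD1152 in orange, SNS-314 in blue and the 0 h controls in grey. PSMC3 and PSME3 separate all 8 arrays at 48 h from the rest, while PSMB4 and PSMD10 at 48 h have means above that of the controls.

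The β subunits that form the ring without cutting split by gene: PSMB2 and PSMB3 fell with both inhibitors, PSMB1 was not called, and PSMB4 was not called lower at any time. PSMB3 had 12.76, 12.91, 12.88 and 12.89 at 48 h of AZD1152 and 12.86, 13.02, 12.90 and 12.65 at 48 h of SNS-314, against 13.21, 13.17, 13.37 and 13.26 in the controls. All 8 arrays at 48 h lay below all other arrays of the series, with changes of -0.39 ± 0.09 (adjusted p = 0.00075 in limma) and -0.40 ± 0.09 (adjusted p = 0.00059). This separation held for PSMB3, PSMC3, PSMD2 and PSME3 among the proteasome genes, 4 of 41, and for 3.93% of all genes. PSMB2 had 12.69, 12.54, 12.55 and 12.41 under AZD1152 and 12.51, 12.70, 12.69 and 12.41 under SNS-314, against 12.84, 12.90, 12.85 and 12.92 in the controls. Its groups did not overlap, with changes of -0.33 (adjusted p = 0.0043) and -0.30 (adjusted p = 0.009).

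PSMB4, a structural β subunit singled out after its values were seen, went the other way. It had 13.88, 13.72, 13.82 and 13.87 at 48 h of SNS-314, against 13.58, 13.63, 13.49 and 13.59 in the controls, and the groups did not overlap (0.25 ± 0.09, adjusted p = 0.024 in limma). With AZD1152 it had 14.13, 13.89, 13.76 and 13.79 at 18 h, above all controls (0.32, adjusted p = 0.012), was called at 24 h too (0.26, adjusted p = 0.04), and had 13.54, 13.68, 13.76 and 13.84 at 48 h, overlapping the controls (0.13, adjusted p = 0.25). The rise at 18 h was not called without AZD1152 18 h replicate 1 (adjusted p = 0.09), and that at 48 h not without SNS-314 48 h replicate 1 or 4 or control replicate 3 (0.058 to 0.072). The call at 24 h was lost in 5 of 8 fits that left out 1 array (0.067 to 0.12).

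Of the constitutive catalytic subunits 1 of 3 was called. PSMB6, which cuts after acidic residues, had 13.15, 13.03, 13.18 and 13.24 at 48 h of AZD1152 and 13.07, 13.22, 13.04 and 12.98 at 48 h of SNS-314, against 13.40, 13.51, 13.46 and 13.46 in the controls. The groups did not overlap, with changes of -0.31 ± 0.09 (adjusted p = 0.0032 in limma) and -0.38 ± 0.09 (adjusted p = 0.00035). PSMB5, the chymotrypsin-like subunit that bortezomib blocks, had 12.84, 12.93, 12.82 and 12.91 under AZD1152 and 12.98, 13.04, 12.92 and 12.63 under SNS-314, against 13.08, 12.96, 13.12 and 12.88 in the controls. PSMB5 levels overlapped, and its changes of -0.13 ± 0.11 (adjusted p = 0.33) and -0.12 ± 0.11 (adjusted p = 0.39) were not called. PSMB7, the trypsin-like subunit, had 13.29, 13.47, 13.20 and 13.20 under AZD1152 and 13.24, 13.31, 13.23 and 13.21 under SNS-314, against 13.49, 13.31, 13.26 and 13.46 in the controls, again with overlap (-0.09 and -0.14, adjusted p = 0.48 and 0.27).

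The inducible subunits were lower by little, and none of their calls was stable. PSMB10, the counterpart of PSMB7 in the immunoproteasome, had 11.84, 11.72, 12.00 and 11.75 at 48 h of AZD1152 and 11.89, 11.91, 11.84 and 11.72 at 48 h of SNS-314, against 12.03, 12.16, 12.14 and 11.98 in the controls. It was called lower with both (-0.25, adjusted p = 0.032 in limma, and -0.24, adjusted p = 0.039), and 7 of the 12 arrays at 48 h or 0 h, left out singly, ended a call (adjusted p 0.05 to 0.12). PSMB8, the counterpart of PSMB5, had 10.50, 10.43, 10.05 and 10.25 under AZD1152 and 10.48, 10.47, 10.27 and 10.38 under SNS-314, against 10.49, 10.75, 10.66 and 10.57 in the controls. It was called with AZD1152 (-0.31, adjusted p = 0.037) and not with SNS-314 (-0.22, adjusted p = 0.14), and leaving out AZD1152 48 h replicate 3 or 4 or control replicate 2 or 3 ended the call (0.074 to 0.17). The probes of PSMB8 differed, as another gave -0.21 and -0.11 and the dimmest -0.01 and 0.01. PSMB9, the counterpart of PSMB6, had 9.91, 10.02, 9.70 and 9.85 under AZD1152 and 9.90, 9.93, 9.87 and 9.88 under SNS-314, against 10.09, 10.13, 9.88 and 10.13 in the controls. Control replicate 3 lay among the treated arrays, and the changes of -0.19 and -0.17 were not called (adjusted p = 0.21 and 0.28).

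**Figure D4:**
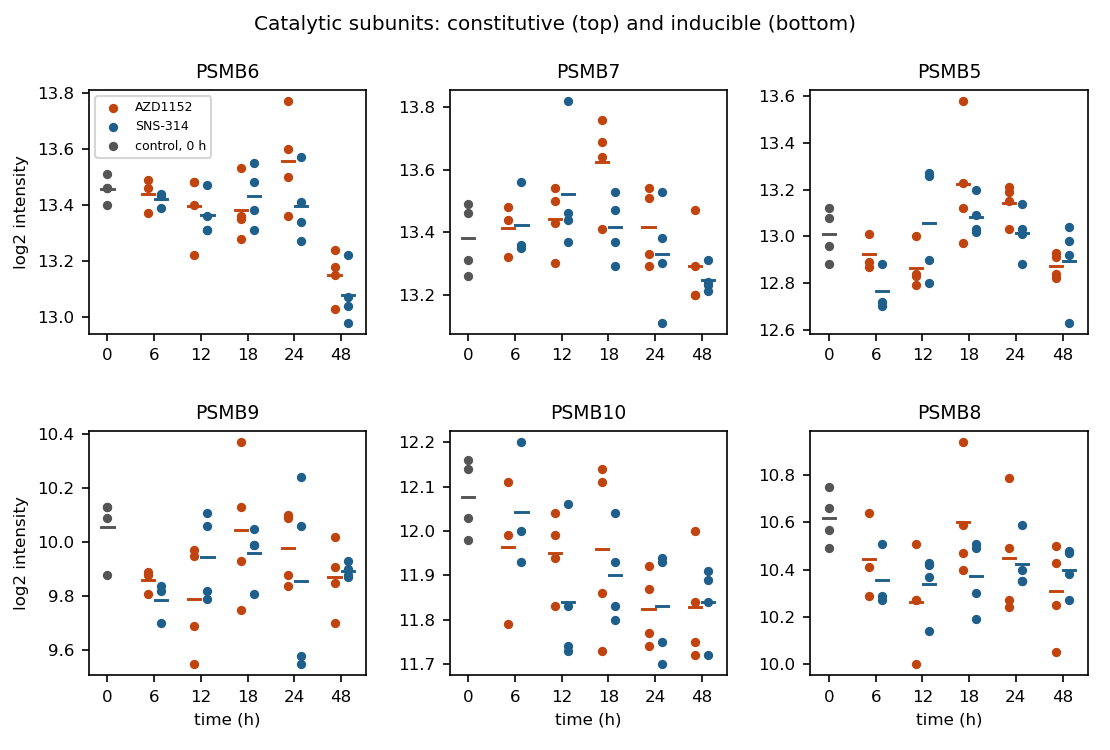
Log2 intensity of the constitutive (PSMB6, PSMB7, PSMB5, top) and inducible (PSMB9, PSMB10, PSMB8, bottom) catalytic subunits on every array (points) with group means (bars), by time in h, AZD1152 in orange, SNS-314 in blue and the 0 h controls in grey. PSMB6 drops at 48 h below all controls, while PSMB5 and PSMB7 at 48 h overlap the controls.

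The ATPases of the 19S base, which thread the substrate into the core, included 3 of 5 genes lower with both inhibitors (PSMC1, PSMC3 and PSMC6). PSMC3 had 11.81, 11.84, 12.00 and 11.96 at 48 h of AZD1152 and 11.85, 11.80, 11.80 and 11.62 at 48 h of SNS-314, against 12.34, 12.31, 12.56 and 12.48 in the controls. The groups stood well apart, with changes of -0.52 ± 0.11 (adjusted p = 0.00012 in limma, 1.44-fold lower) and -0.66 ± 0.11 (adjusted p = 2.8e-06, 1.58-fold lower). PSMC3 was not called before 48 h: its mean of 12.42 in the 0 h controls was followed at 6, 12, 18, 24 and 48 h by 12.47, 12.51, 12.46, 12.34 and 11.90 in AZD1152 samples and by 12.53, 12.55, 12.30, 12.26 and 11.77 in SNS-314 samples. PSMC1 had 13.90, 13.72, 13.70 and 13.48 under AZD1152 and 14.03, 13.67, 13.71 and 13.50 under SNS-314, against 14.22, 14.24, 14.12 and 14.16 in the controls. Its groups did not overlap either, with changes of -0.49 (adjusted p = 0.00025) and -0.46 (adjusted p = 0.00049), and its other probe gave -0.48 and -0.44. PSMC6 changed by -0.34 and -0.40 (adjusted p = 0.013 and 0.0037), and a call was lost without control replicate 1 (adjusted p = 0.06). PSMC2 (-0.16 and -0.01) and PSMC4 (-0.20 and -0.12) were not called.

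Among the non-ATPase subunits of the cap, 4 of 9 were lower with both (PSMD1, PSMD2, PSMD12 and PSMD14). PSMD1 and PSMD2 are the large scaffolds on which ubiquitin-binding proteins dock. PSMD1 had 11.79, 11.89, 11.82 and 11.86 at 48 h of AZD1152 and 11.79, 12.03, 11.82 and 11.79 at 48 h of SNS-314, against 12.41, 12.19, 12.54 and 12.41 in the controls. The groups did not overlap, and PSMD1 changed by -0.55 ± 0.11 (adjusted p = 5.2e-05 in limma) and -0.53 ± 0.11 (adjusted p = 7.9e-05). PSMD12, a subunit of the lid, had 11.13, 11.22, 10.89 and 10.93 with AZD1152 and between 10.84 and 11.01 with SNS-314, against 11.41, 11.45, 11.37 and 11.73 in the controls. It changed by -0.45 ± 0.11 (adjusted p = 0.0011) and -0.56 ± 0.11 (adjusted p = 7.7e-05), with no overlap. PSMD2 changed by -0.48 and -0.42 (adjusted p = 0.00011 and 0.00055), and PSMD14, the enzyme that strips ubiquitin from the substrate, by -0.38 and -0.32 (adjusted p = 0.00052 and 0.0029). The ubiquitin receptor PSMD4 rose at 18 h of AZD1152, with 13.43, 13.27, 13.05 and 13.11, against 12.86, 12.77, 12.83 and 12.79 in the controls (0.41 ± 0.10, adjusted p = 0.0041, called in all 8 fits that left out 1 array). This call was lost without the 3 arrays that stand apart, which include AZD1152 18 h replicates 1 and 4. At 48 h PSMD4 was at -0.19 under AZD1152 (adjusted p = 0.13) and -0.27 under SNS-314 (adjusted p = 0.03), and the SNS-314 call was lost without SNS-314 48 h replicate 1 or 4 or control replicate 1 or 3 (0.054 to 0.065). The other probes of PSMD4 were called higher at 18 h of AZD1152 too (0.52 and 0.44, adjusted p = 0.014 and 0.015), but were not called at 48 h of SNS-314 (-0.04 and -0.09, adjusted p = 0.86 and 0.59). PSMD3 was called with AZD1152 alone (-0.44, adjusted p = 0.02), not without AZD1152 48 h replicate 1 or control replicate 1 (0.053 to 0.058). PSMD6, PSMD8 and PSMD11 were not called.

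The chaperones that assemble the ATPase ring moved in opposite directions. PSMD5 fell, with 9.06, 8.63, 8.80 and 8.73 at 48 h of AZD1152 and 8.98, 8.73, 8.82 and 8.49 at 48 h of SNS-314, against 9.28, 9.33, 9.34 and 9.32 in the controls. No array overlapped the controls, and its changes were -0.51 ± 0.10 (adjusted p = 6.1e-05 in limma) and -0.56 ± 0.10 (adjusted p = 1.5e-05). PSMD10 (gankyrin, an oncoprotein that also binds RB1 and CDK4) rose, with 11.81, 12.03, 11.77 and 11.86 under AZD1152 and 11.85, 12.08, 11.90 and 11.76 under SNS-314, against 11.72, 11.67, 11.42 and 11.53 in the controls. Its arrays at 48 h lay above all controls, by 0.28 ± 0.10 (adjusted p = 0.026, 1.22-fold) and 0.31 ± 0.10 (adjusted p = 0.013, 1.24-fold). PSMD10 was higher at 18 h too, by 0.36 under AZD1152 (adjusted p = 0.014) and 0.40 under SNS-314 (adjusted p = 0.0085). The rise of PSMD10 at 48 h was not called without AZD1152 48 h replicate 2 or control replicate 3 or 4 (adjusted p 0.061 to 0.1), nor with SNS-314 without SNS-314 48 h replicate 2 or control replicate 3 (0.062 to 0.067), nor with its other probes, at 0.24 to 0.26 and adjusted p 0.12 to 0.15. At 18 h the other probes of PSMD10 were called higher with AZD1152 (0.49 each, adjusted p = 0.0075 and 0.011), and 1 of them with SNS-314 (0.44, adjusted p = 0.034, against 0.35, adjusted p = 0.09, for the other). Its rise at 18 h was lost with AZD1152 without AZD1152 18 h replicate 1 or control replicate 3 (0.063 to 0.087), and with SNS-314 without control replicate 3 (0.05). The AZD1152 call at 18 h was also lost without the 3 arrays that stand apart. PSMD9 was called lower at 24 h (-0.30 with AZD1152 and -0.37 with SNS-314) and at 48 h of AZD1152 (-0.26), and only the SNS-314 call at 24 h held in all 8 fits that left out 1 array.

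The caps other than 19S included 1 of 4 called genes. PSME3, the nuclear activator REGγ, had 10.94, 10.76, 10.94 and 10.64 at 48 h of AZD1152 and 10.88, 10.86, 10.78 and 10.84 at 48 h of SNS-314, against 11.43, 11.47, 11.49 and 11.45 in the controls. The nearest treated and control arrays were thus far apart, and the changes were -0.64 ± 0.10 (adjusted p = 5.8e-07 in limma, 1.56-fold lower) and -0.62 ± 0.10 (adjusted p = 1.1e-06, 1.53-fold lower). PSME4, the activator PA200, had 12.29, 12.43, 12.47 and 12.30 under AZD1152 and 12.53, 12.35, 12.60 and 12.33 under SNS-314, against 12.48, 12.44, 12.70 and 12.54 in the controls. PSME4 overlapped the controls and was not called (-0.17 and -0.09, adjusted p = 0.15 and 0.45). The interferon-inducible pair PSME1 and PSME2 had estimates from -0.12 to -0.04 and was not called.

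The chaperones of the 20S core were lower in all 4 estimates, and PSMG3 and PSMG4 were called with both inhibitors. PSMG3 had 9.59, 9.88, 9.74 and 9.83 at 48 h of AZD1152 and 9.86, 9.72, 9.61 and 9.59 at 48 h of SNS-314, against 9.94, 9.98, 10.23 and 10.16 in the controls, with no overlap (-0.32, adjusted p = 0.012 in limma, and -0.38, adjusted p = 0.0024). PSMG4 had 10.14, 9.99, 10.12 and 10.08 under AZD1152 and 10.01, 10.13, 10.03 and 9.91 under SNS-314, against 10.11, 10.33, 10.58 and 10.51 in the controls. Control replicate 1 of PSMG4 lay among the treated arrays, with changes of -0.30 (adjusted p = 0.011) and -0.36 (adjusted p = 0.0022). With AZD1152 the PSMG3 call was lost without AZD1152 48 h replicate 1 or control replicate 3 (0.056 to 0.059) and the PSMG4 call without control replicate 3 (0.066). PSMG1 was called with AZD1152 (-0.29, adjusted p = 0.036, lost in 4 of 8 fits that left out 1 array and with its other probe, at -0.22 and adjusted p = 0.18) and not with SNS-314 (-0.26, adjusted p = 0.059), and PSMG2 with SNS-314 (-0.38, adjusted p = 0.0036) and not with AZD1152 (-0.17, adjusted p = 0.2).

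**Figure D5:**
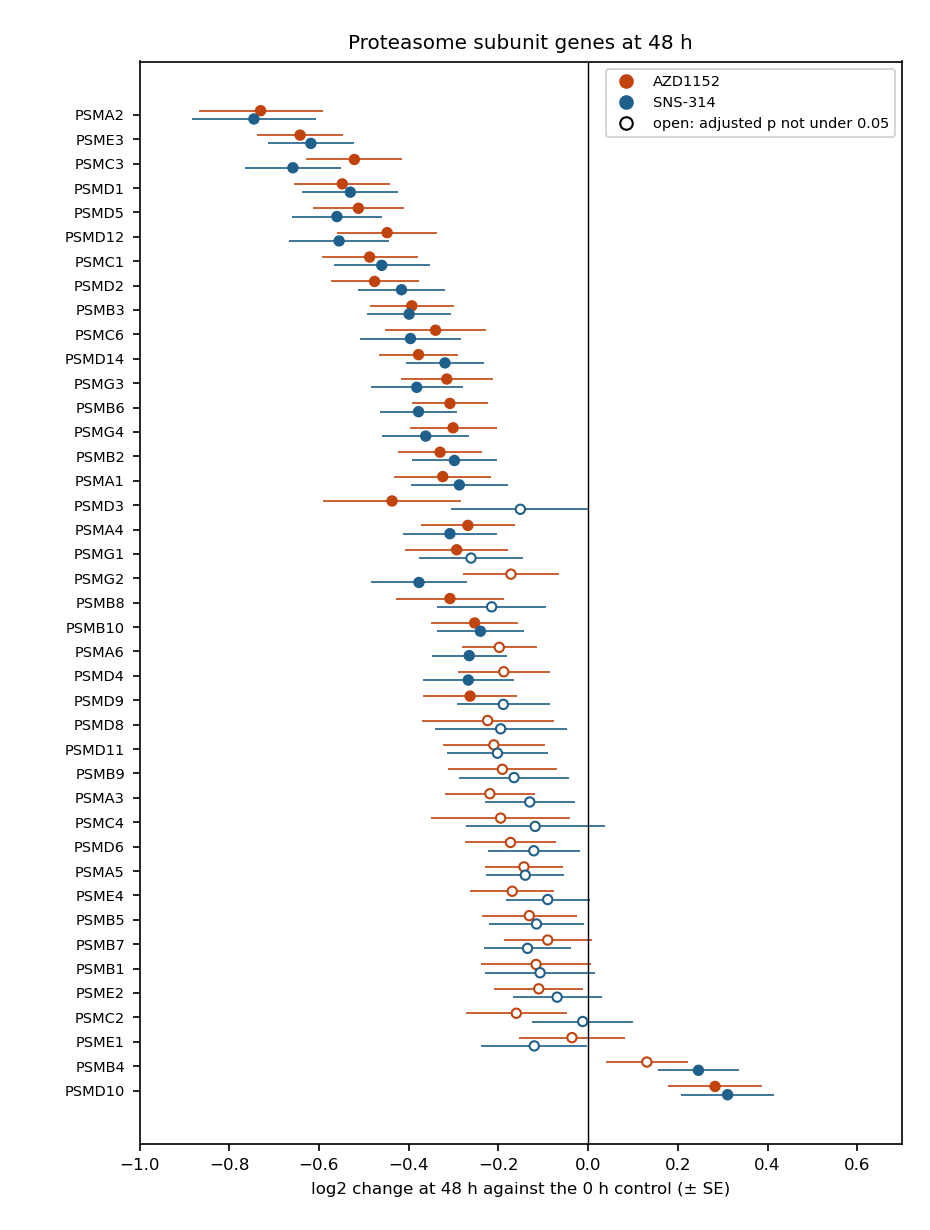
Log2 change at 48 h against the 0 h controls for the 41 measured proteasome genes, ordered by the mean of both inhibitors, AZD1152 in orange and SNS-314 in blue. Points are fitted changes with bars of ± 1 SE, and open points have an adjusted p not under 0.05, with PSMA2 lowest and PSMD10 highest.

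Up to 24 h few proteasome genes were called. The counts were small, and several lay near the shares over all genes given beside them. At 6 h, 0 of 41 were called with either inhibitor, where with AZD1152 1.2% of all genes were higher and 1.49% lower, and with SNS-314 1.93% higher and 1.79% lower. At an unadjusted p under 0.05 in limma there were 2 proteasome genes at 6 h of AZD1152, beside 1036 of 8917 genes measured. At 6 h of SNS-314 there were 3, beside 1214 of 8917. At 12 h, 1 gene, PSMG4, was lower with each inhibitor (-0.39, adjusted p = 0.012, and -0.31, adjusted p = 0.046 in limma), where 2.83% of all genes were lower and 1.45% higher with AZD1152, and 3.63% lower and 1.94% higher with SNS-314. The 12 h call of PSMG4 was lost without AZD1152 12 h replicate 4 or control replicate 3 or 4 (0.06 to 0.085), and with SNS-314 in 6 of 8 fits that left out 1 array (0.066 to 0.22). At 18 h of AZD1152, PSMB4, PSMD4 and PSMD10 were higher and PSMA2 and PSMG1 lower, where 7.98% of all genes were higher and 9.72% lower, and at 18 h of SNS-314 only PSMD10 was higher and 0 were lower, where 4.08% of all genes were higher and 5.64% lower. The AZD1152 count of 5 at 18 h was 1 without AZD1152 18 h replicate 1, 8 without its replicate 3, and 0 without the 3 arrays that stand apart. At 24 h of AZD1152, PSMB4 was higher and PSMA2, PSMD9 and PSMG1 lower, where 7.56% of all genes were higher and 9.2% lower, and at 24 h of SNS-314 PSMD9 and PSMG1 were lower and 0 higher, where 10.7% of all genes were lower and 9.09% higher. The AZD1152 count of 4 at 24 h was 1 or 2 in all 8 fits that left out 1 array. The SNS-314 count of 2 at 24 h was 1 without SNS-314 24 h replicate 4, 4 without its replicate 2, and 5 without the 3 arrays. The PSMG1 calls were -0.33 at 18 h and -0.35 at 24 h of AZD1152, each lost in 5 of 8 fits that left out 1 array (adjusted p 0.052 to 0.11), and -0.39 at 24 h of SNS-314, the last lost without SNS-314 24 h replicate 4 (adjusted p = 0.11). The other probe of PSMG1 was not called in these comparisons (-0.26 to -0.19, adjusted p 0.2 to 0.34).

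Set against earlier samples of the same inhibitor, proteasome genes were lower at 48 h too. These comparisons leave the 0 h controls out but reuse the same 48 h arrays, so they are not independent of those with 0 h. Time under the inhibitor and time in culture cannot be told apart here either. Against 6 h, 16 of 41 fell and 0 rose with AZD1152, where 20.8% of all genes fell and 1894 of 8917 rose. With SNS-314, 17 fell and 2, PSMB4 and PSMD10, rose, where 23.2% of all genes fell and 22.9% rose. Against 24 h, a comparison added after the data were seen, 14 fell with AZD1152 (13.6% of all genes) and 17 with SNS-314 (13%). None rose with either, where 1245 of 8917 genes rose with AZD1152 and 1175 with SNS-314. The SNS-314 count against 24 h was 10 without SNS-314 48 h replicate 4. PSMD2 changed by -0.62 between 24 h and 48 h of AZD1152 (adjusted p = 4.7e-06 in limma) and by -0.40 under SNS-314 (adjusted p = 0.0017). PSME3 changed by -0.51 (adjusted p = 7e-05) and -0.47 (adjusted p = 0.00021) over the same step, and PSMD4 by -0.43 (adjusted p = 0.0011) and -0.37 (adjusted p = 0.0052). PSMA2 changed less over that step than against 0 h, by -0.35 (adjusted p = 0.056) and -0.39 (adjusted p = 0.032). PSMB10, PSMB9 and PSMB8 changed by -0.14 to 0.04 between 24 h and 48 h and were not called.

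The inhibitors were given at different doses, so differences between them hold both compound and dose. Between AZD1152 and SNS-314, 0 of 41 proteasome genes were called by limma at any of the 5 times, where 0.0336% of all genes were called lower at 18 h and 0% at every other time. At an unadjusted p under 0.05 the counts were 1, 3, 3, 3 and 0 at 6, 12, 18, 24 and 48 h. Over all 8917 genes they were 278, 577, 1054, 296 and 269. At 48 h the largest difference, AZD1152 minus SNS-314, was that of PSMD3, -0.29 with a 95% interval of -0.60 to 0.03, and the interval lay within 0.5 in either direction for 40 of 41 genes. The interval was -0.26 to 0.29 for PSMA2 and -0.08 to 0.35 for PSMC3.

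Proteins that work with the proteasome under other names were measured in 12 of 12 listed genes, and 3 were lower at 48 h with each inhibitor and 1 (ZFAND5, with AZD1152) higher. As 21.8% and 23% of all genes were lower at 48 h, the count of 3 is near the share over all genes. ADRM1, a ubiquitin receptor of the cap, changed by -0.60 ± 0.14 (adjusted p = 7e-04 in limma) and -0.52 ± 0.14 (adjusted p = 0.0032). UCHL5, the deubiquitinase that ADRM1 holds, changed by -0.61 ± 0.13 (adjusted p = 0.00014) and -0.76 ± 0.13 (adjusted p = 4.5e-06). Of 10 listed genes of NFE2L1 control 8 were measured, and 2 rose and 0 fell with each inhibitor, where 20.7% and 22.3% of all genes rose. NFE2L1 itself was at 0.18 with each (adjusted p = 0.19 and 0.18) and NFE2L2 at 0.24 and 0.30 (adjusted p = 0.2 and 0.097). SYVN1, the ubiquitin ligase of the endoplasmic reticulum that keeps NFE2L1 low, rose by 1.30 ± 0.13 (adjusted p = 1e-10) and 1.10 ± 0.13 (adjusted p = 4.9e-09), or 2.46-fold and 2.15-fold. SEL1L, its partner, was not above background in any control and was at least 1.16-fold higher with AZD1152 (adjusted p = 1.7e-07) and at least 1.05-fold higher with SNS-314 (adjusted p = 2.3e-06), with the background threshold in place of the control level.

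Of 14 listed genes of ubiquitin supply and shuttling 10 were measured, and 5 were lower with AZD1152 and 4 with SNS-314, with 0 higher, beside the 21.8% and 23% of all genes that were lower. NSFL1C, a cofactor of the segregase VCP, changed by -0.61 ± 0.10 (adjusted p = 5e-06 in limma) and -0.34 ± 0.10 (adjusted p = 0.0058). RAD23B, which carries ubiquitinated proteins to the proteasome, changed by -0.48 ± 0.10 (adjusted p = 0.00016) and -0.47 ± 0.10 (adjusted p = 0.00017). UFD1, another VCP cofactor, changed by -0.29 and -0.35 (adjusted p = 0.029 and 0.0088) and was above background on 2 of 4 arrays in each group. Of 10 listed inducers and neighbours of the inducible subunits 6 were measured, of which 2 were higher and 0 lower with AZD1152 and 2 higher and 1 lower with SNS-314, beside 20.7% and 22.3% of all genes higher. IRF9, a subunit of the interferon-activated factor, rose by 0.45 ± 0.08 (adjusted p = 2.5e-05) and 0.41 ± 0.08 (adjusted p = 0.00011). TAP1 and TAPBP, which serve peptide loading, were called higher with 1 inhibitor each (TAP1 at 0.29 with AZD1152, TAPBP at 0.25 with SNS-314). IRF1, an activator of the inducible subunits, was at -0.32 with AZD1152 (adjusted p = 0.11) and fell with SNS-314 (-0.48, adjusted p = 0.013), and TAP2 was at -0.16 and -0.17 (adjusted p = 0.25 and 0.21). The AZD1152 and SNS-314 changes share the same 4 controls, so agreement between them is not independent. PSMC3IP, which shares letters with the subunits but acts in homologous recombination, was called lower with both inhibitors at 48 h (adjusted p = 3.4e-08 and 2.5e-08). With AZD1152 1 of 4 arrays exceeded background and no fold is given. With SNS-314 0 of 4 did, and PSMC3IP was at least 1.69-fold lower.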

How the data were processed

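Per the file headers, the first deposited table holds the non-normalized intensity of 47312 probes on 42 arrays. The second deposited table holds the authors' log2 values, with a median of 8.15 on every array. Which steps led to it is not given in the sources used here. Of 2 contradictory header lines above the intensities the second was taken: by its names each of 42 columns correlates best with its own array in the other table, by those of the first line only 1.

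With limma 3.58.1 in R 4.3.3, intensities were background corrected (normexp, no control probes, offset of 50), then quantile normalized and converted to log2. A probe was kept if it exceeded its array's 95th percentile of background, set from the mode and lower flank of the signal, on at least 3 arrays of 1 group. A gene (8917) was read from its brightest passing probe, with symbols updated through RefSeq GRCh38.p14. Of the probes, 30110 had 1 symbol, 8 several and 17194 none. Where a group was nowhere above background, the fold is a bound against that threshold. Group means were fitted over all 42 arrays for 17 planned and 2 added comparisons, and p-values were adjusted within each. Precision depends on the number of arrays, and a proteasome gene's change at 48 h had an SE of 0.104 in the median. The fit was also run on simulated data. Noise there was drawn independently for each probe and array, so arrays could not deviate together, and the calls made here were not tested by it. Proteasome genes and the lists of sub-complexes, pathways and markers were chosen with earlier results of these data known. Genes shown by array followed a rule: PSMB5 to PSMB10, the members called with both inhibitors at 48 h with the largest mean change (6 in each direction), and the 2 of each sub-complex with the largest mean change, and from each pathway list the genes called with both (3 in each direction), while PSMB4 and PSMD4 were added after their values were seen. Chips (4) were inferred from the digits that end the column names, and neither the headers nor the labels say that these digits name a chip. Same-numbered arrays of AZD1152 and SNS-314 shared a chip and deviated together at 6 h, with residual correlations of 0.15 to 0.278, at 12 h (0.15 to 0.324) and at 24 h (0.28 to 0.424). Every pair at these times was over 0.1. At 48 h (0.0672 to 0.288, 3 of 4 pairs over 0.1) and at 18 h (-0.0493 to 0.401) not every pair was. Between treated arrays and same-numbered controls the correlations were -0.127 to 0.114 for AZD1152 and -0.171 to 0.389 for SNS-314. The highest was that of SNS-314 6 h replicate 1, and at no time was every such pair over 0.1. The alternatives tried took the authors' normalized table, skipped background correction, scaled arrays by their 75th percentile, dropped the filter or required all arrays, averaged probes or read single ones, and used an intensity trend with robust variances, the compared groups only, replicate or chip as a block, values within a chip, or fewer arrays (each left out in turn, or the 3 that stand apart).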

Additional observations from a re-analysis of the deposited data

Results flagged for a closer look

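In 7 of 189 groups of 4 arrays tested, 1 array lay far from the other 3 (by Dixon's criterion at 95%), a rate below the 1 in 20 that chance gives. AZD1152 12 h replicate 4 had PSMC3 at 12.65 (others 12.44 to 12.47), PSMD1 at 12.12 (12.36 to 12.41) and PSMD10 at 11.40 (11.74 to 11.79). AZD1152 18 h replicate 4, 1 of the 3 arrays that stand apart, had PSMC1 at 13.66 (13.98 to 14.02). SNS-314 24 h replicate 4 had PSMD12 at 10.83 (11.38 to 11.41), below the 48 h arrays of that inhibitor. SNS-314 48 h replicate 2 had PSMD1 at 12.03 (11.79 to 11.82), below all controls. Control replicate 3 had PSMB9 at 9.88 (10.09 to 10.13). Among the proteasome genes shown by array, none had at any time all arrays of one inhibitor above the control mean and all of the other below it.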

How the results depend on the processing

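Of 476 recomputed counts and medians 454 stayed near the reported value, under 11 alternatives, single probes and values within a chip. Near means a count within 1.5 times, or a median within the spread between arrays of a group, whatever its sign. For example, the medians at 18 h and 24 h of AZD1152 were 0.05 and 0.02 within chip 2, against -0.025 and -0.031 as reported. Of 492 gene changes at 48 h 472 kept their sign and stayed called or not called, 19 lost a call and 1 reversed its sign. Changes that were not called to begin with are among the 472. The number of proteasome genes lower with both inhibitors at 48 h (18) was 15 with scaling to the 75th percentile, 15 without a filter, 17 with chip as a fixed block and 18 to 20 under the others. The counts that moved were all small and before 48 h. Scaling to the 75th percentile gave 0 called at 24 h of AZD1152 and at 12 h of SNS-314, with medians of 0.03 at 6 h of SNS-314 and -0.34 between its 6 h and 48 h. No filter gave 3 at 18 h and 0 at 24 h of AZD1152 and 0 at 12 h of SNS-314, with more genes tested. The mean over probes gave 2 at 12 h and 4 at 24 h of SNS-314. Fitting the compared groups alone gave 0 at 12 h and 1 at 18 h of AZD1152, and 0 at 12 h and 2 at 18 h of SNS-314. The replicate block gave 1 at 6 h and 2 at 12 h of AZD1152, and 3 at 18 h and 4 at 24 h of SNS-314, and moved no other count by over 1.5 times. Without the 3 arrays that stand apart, an alternative chosen after seeing the data, 0 were called at 18 h of AZD1152 and at 12 h of SNS-314 and 5 at 24 h of SNS-314. The median at 24 h of SNS-314 was -0.032 within chip 2 and -0.033 within chip 3. The cause of these differences was not tested except where given. Another probe of PSMB8 reversed its SNS-314 change at 48 h to 0.007. Calls of PSMB10 (scaling, no filter, chip), PSMB8 (no filter, mean over probes, chip), PSMD10 (no filter) and PSMA1 (no filter, chip as a fixed block) were lost at adjusted p 0.057 to 0.099 in limma.

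Leaving out 1 array gave 0 to 2 called at 12 h, 1 to 8 at 18 h, 1 to 2 at 24 h and 16 to 21 at 48 h of AZD1152, and 0 to 2 at 12 h, 0 to 2 at 18 h, 1 to 4 at 24 h and 18 to 22 at 48 h of SNS-314. The extremes at 18 h of AZD1152 came without its replicate 1 (1) and replicate 3 (8), the 0 at 18 h of SNS-314 without control replicate 3, and those at 24 h of SNS-314 without its replicate 4 (1) and replicate 2 (4). Between 6 h and 48 h the counts were 12 to 17 with AZD1152 and 15 to 19 with SNS-314, and between 24 h and 48 h 12 to 14 and 10 to 16.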
